A study of Mus musculus with 82 samples.

Results

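The effect of the lowest of the tested doses on mouse skin was examined at d4 after exposure, by comparing biopsies of mice that had received 1 Gy of whole-body X-ray radiation with biopsies of sham mice. All arrays labelled with a dose of 1 Gy and d4 (4 arrays of 4 mice) were set against all arrays labelled 0 Gy and d4 (4 arrays of 4 mice), which makes 8 of the 82 arrays of the series. The animals were male C57BL/6j mice, bought at 8 weeks of age and kept for acclimation before exposure. Mice were anesthetized with ketamine and xylazine and placed in a divided container under a linear accelerator, and sham mice went through the same procedure with the radiation left out. All of them were shaved and had skin taken from the back, and by the protocol every mouse had been biopsied at h2 already, with the site sutured, so that both groups at d4 carried an earlier wound. The material is whole skin, in which a lower number of cells of a type and less RNA per cell cannot be told apart. Each array carried Cy5-labeled RNA of a biopsy beside Cy3-labeled universal mouse reference RNA, and every value below is a log2 ratio of biopsy to reference unless it is called a difference.

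The outer layers of the epidermis are built by keratinocytes that leave the basal layer, make keratins and late envelope proteins, and end as dead cornified cells that proteases of the kallikrein family release from the surface. Sebaceous glands beside each hair follicle fill their cells with lipid and burst them onto the skin. Ionizing radiation breaks DNA, and p53 then induces genes that halt the cell cycle, repair DNA or kill the cell, while dividing cells of the epidermis and of hair follicles are among the sensitive cells of the skin.

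The 8 arrays were read on a pair of scanners that are named here by the prefixes in the sample descriptions, SG and US, and the groups are unevenly spread over them. The sham arrays of mice M001, M004 and M005 were of prefix SG and that of M002 was of prefix US, whereas after 1 Gy the array of M010 was of prefix SG and those of M007, M008 and M009 were of prefix US. For these arrays the prefix goes together with the scanner model, the scan day and the software version, which cannot be told apart. The sham arrays of M004 and M005 lay on one slide, and so did the irradiated arrays of M007 and M009. Between 47.2% and 67.5% of probes lay well above background in Cy5, and no probe was saturated. The correlation of the scanner values of all probes was 0.96 to 0.98 between arrays of prefix SG, 0.796 to 0.949 between arrays of prefix US and 0.783 to 0.876 between prefixes. The irradiated array of prefix SG correlated at 0.96 to 0.98 with the sham arrays of its own prefix and at 0.832 to 0.859 with the other irradiated arrays. In the table of normalized values that the authors deposited for the same arrays, these ranges were 0.967 to 0.97 and 0.97 to 0.98. All correlations are across genes, which are no independent replicates.

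A first model was fitted to the scanner values of all 82 arrays, and a second one added the scanner prefix as a block. Significantly differentially transcribed genes (SDTGs) were counted in probes, as those that passed 0.05 in limma after Benjamini-Hochberg adjustment with at least a 2-fold change. Neither model gave an SDTG among the 30294 probes tested (0% called), and the lowest adjusted p was 0.763 in the first and 1 in the second. At an unadjusted p under 0.05, the first model held 875 probes higher after 1 Gy (2.89%) and 1009 lower (3.33%), and 74 and 29 of these had a fold change of at least 2. With the scanner block, 306 were higher (1.01%) and 338 lower (1.12%), with 4 and 3 past the fold. When the normalized table of the authors was fitted in the same way, 216 probes passed upward (0.713%) and 7 downward (0.0231%), and 9.73% of probes were higher and 7.02% lower at an unadjusted p under 0.05.

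The 216 higher probes carry 188 gene symbols, and the 10 genes with the largest rise were Hrnr, Tmprss4, Myh2, Serpinb12, Stfa3, Aadac, Serpinb10, Serpinb3b, Fa2h and Ccl19. Their median log2 difference was 1.26 in the deposited values, 0.55 in the first model and 0.34 with the scanner block, and 191 and 196 of them were positive in the latter models. In the scanner values of the same 8 hybridizations, 25 of the 216 had an unadjusted p under 0.05 (2.89% of all probes tested were higher at that p), and 22 had irradiated values that lay above all sham values (over all probes tested, 1.05% did so). By prefix, the arrays differed between the sources. Among arrays of prefix US, the irradiated arrays lay above the sham array by a median of 1.08 in the scanner values and 1.24 in the deposited ones. Among arrays of prefix SG, the irradiated array lay above the sham mean by a median of 0.06 in the scanner values and 1.19 in the deposited ones. It was above all 3 sham arrays of its prefix for 63 of the 216 probes (29.2%) in the scanner values, where 22.1% of all tested probes were, and for 215 (99.5%) in the deposited values, where 32.9% of all were. The probes were chosen on the deposited values of the irradiated arrays, this array included, so that their share in those values is largely fixed by the choice. The counts in the scanner values come from the same hybridizations and are not independent of the choice either, and all are given as a description.

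**Figure D1:**
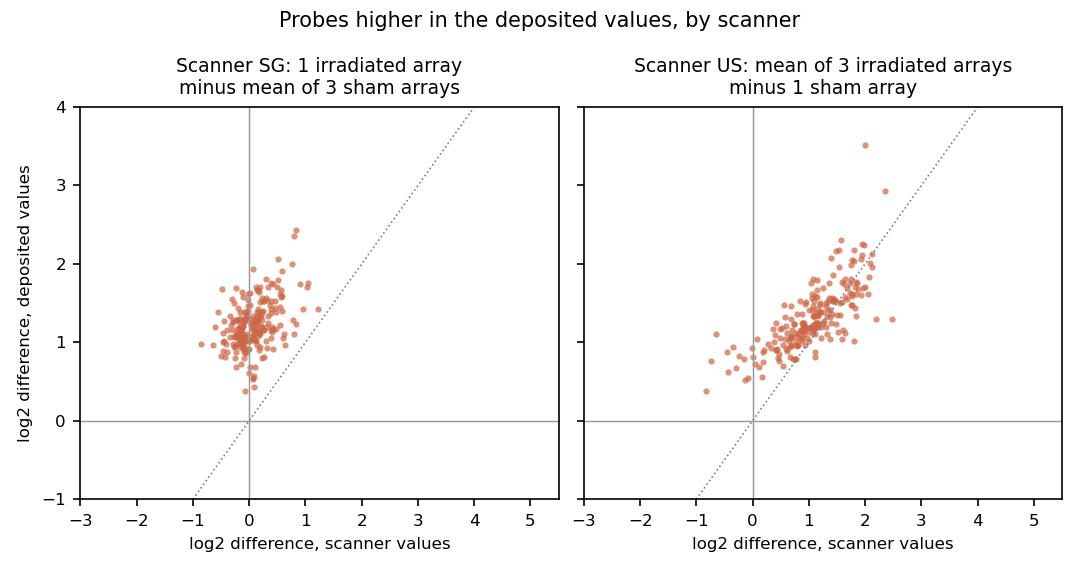
The 216 probes that were higher after 1 Gy in the deposited values are shown as points, with the log2 difference in scanner values on the x axis and that in deposited values on the y axis, for arrays of prefix SG on the left and of prefix US on the right. The dotted line marks equal differences; on the left the points gather around an x value of 0.06 (median) and a y value of 1.19, and on the right around 1.08 and 1.24.

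Serpins of clade B are protease inhibitors that mostly act inside cells, and Serpinb12, Serpinb10 and Serpinb3b were among the 10 genes with the largest rise in the deposited values. Serpinb2 (1.55, adjusted p = 0.00252) and Serpinb7 (1.41, adjusted p = 0.0138) also rose there, and are named after their values were seen. In the first model they had 0.93 and 0.86 (unadjusted p = 0.0993 and 0.218 in limma), and 0.68 and 0.18 with the scanner block. The other genes of the clade were not counted. Serpinb12 (chr1:106934449-106957080, GRCm38.p6) had scanner values of 3.75, 2.89 and 3.22 in the sham arrays of prefix SG and 3.36 in that of prefix US. After 1 Gy it had 3.88 in the array of prefix SG and 5.17, 5.59 and 5.69 in those of prefix US. The groups did not overlap, although the irradiated array of prefix SG lay just above the highest sham array. The log2 difference was 1.77 ± 0.65 (SE), with an unadjusted p of 0.00803 and an adjusted p of 0.763 in limma, and 1.22 with the scanner block. It was 0.59 within prefix SG and 2.12 within prefix US, and ran from 0.03 to 2.27 over 27 alternatives. In the deposited values, Serpinb12 rose by 2.27 ± 0.39 (adjusted p = 7e-04), from sham values of 2.75, 2.56, 2.97 and 3.17 to 4.67, 5.19, 5.97 and 4.71. Its other probe had 1.17 in the first model and 1.13 in the deposited values (adjusted p = 0.0196).

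Serpinb3b and Serpinb10 lie with Serpinb12 in one cluster on chromosome 1. In the deposited values, Serpinb3b (chr1:107153961-107161114) rose by 1.92 (adjusted p = 0.00107) and Serpinb10 (chr1:107528994-107560742), a serpin known from blood cells, rose by 1.94 (adjusted p = 0.000469). Their differences in the first model were 1.15 (unadjusted p = 0.036) and 1.02 (0.0593). A second probe of Serpinb10 differed less, by 0.32 in the deposited values. Serpinb3a (chr1:107045587-107052303), which lies between Serpinb12 and Serpinb3b, had 0.31, 0.45, 0.52 and 0.10 in sham and 0.63, 0.85, 1.01 and 1.11 after 1 Gy in the scanner values, without overlap. Its difference was 0.55 (unadjusted p = 0.0215), and 0.71 in the deposited values, where the adjusted p of 0.00107 passed but the fold did not.

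The bases before the start of these genes are shown because Serpinb12 and Serpinb3b lie near each other and rose together in the deposited values, and Hrnr rose most of all named genes there. The sequences come from RefSeq (GRCm38.p6), read on the strand of the gene, and hold the 250 bases that end at its start. Capitals mark the letters TGANTCA, which include the AP-1 element, and TATAAA, searched on both strands. The windows are chr1:106934199-106934448 on the plus strand for Serpinb12, chr1:107161115-107161364 on the minus strand for Serpinb3b and chr3:93319499-93319748 on the plus strand for Hrnr.
Serpinb12: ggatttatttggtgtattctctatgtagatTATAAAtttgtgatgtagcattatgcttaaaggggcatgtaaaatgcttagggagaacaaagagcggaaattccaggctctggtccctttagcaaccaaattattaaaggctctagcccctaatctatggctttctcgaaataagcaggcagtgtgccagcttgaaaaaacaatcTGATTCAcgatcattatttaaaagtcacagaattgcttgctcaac
Serpinb3b: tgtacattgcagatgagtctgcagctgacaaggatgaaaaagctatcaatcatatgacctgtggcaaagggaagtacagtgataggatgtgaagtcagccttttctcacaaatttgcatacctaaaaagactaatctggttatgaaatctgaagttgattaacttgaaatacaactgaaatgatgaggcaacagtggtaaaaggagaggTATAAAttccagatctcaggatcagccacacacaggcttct
Hrnr: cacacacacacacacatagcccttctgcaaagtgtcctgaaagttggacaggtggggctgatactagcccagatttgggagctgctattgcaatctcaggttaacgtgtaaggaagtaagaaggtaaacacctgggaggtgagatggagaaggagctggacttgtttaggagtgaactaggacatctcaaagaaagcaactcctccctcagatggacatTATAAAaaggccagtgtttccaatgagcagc
All 3 hold TATAAA and Serpinb12 also holds TGANTCA. Among 27025 promoters of this length, 13% held TATAAA and 6.87% held TGANTCA. Of the 188 genes higher in the deposited values, 141 were matched to a promoter, and 17% of these held TATAAA and 13.5% TGANTCA. Of the 31 suprabasal and cornified genes, 26 were matched, with shares of 42.3% and 30.8%. For 11 matched wound and stress genes of keratinocytes they were 45.5% and 27.3%, and for 20 matched p53 targets 10% and 5%. None of 8 matched genes of kallikreins and their inhibitors held either motif. These shares describe the windows and say nothing of what binds there.

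Genes of the suprabasal and cornified epidermis were the gene list with the most SDTGs in the deposited values. Of 35 listed genes 31 were tested, and 9 of them were SDTGs upward in the deposited values and none downward, where 181 of 15731 genes were upward. Their median log2 difference was 1.07 in the deposited values, 0.55 in the first model and 0.24 with the scanner block, against 0.01, 0.00 and -0.01 over all genes. In the first model 26 of 31 were positive, 1 had an unadjusted p under 0.05, and 2 did not overlap between groups. Over all genes, 49.8% were positive, 2.45% were higher at that p and 0.979% did not overlap upward. Within prefix SG the median was -0.06 and within prefix US 0.77, and it turned to -0.44 when local backgrounds flagged as outliers were left as they were, a step that was chosen after seeing the data.

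Hornerin (Hrnr, chr3:93319749-93333572), a late envelope protein, had scanner values of 5.30, 4.50, 5.01 and 5.38 in sham and 5.77, 6.70, 6.93 and 7.13 after 1 Gy, where the first array of the latter is that of prefix SG. The groups did not overlap, with the prefix SG array again lowest of the irradiated. The difference was 1.58 ± 0.70 (SE; unadjusted p = 0.027), and in the deposited values Hrnr rose by 2.49 ± 0.49 (adjusted p = 0.00186). Over 27 alternatives, 26 of them positive, this probe ran from -0.44 to 2.49, with 0.83 within prefix SG and 1.54 within prefix US. The other probe of Hrnr had 1.12 in the first model and rose by 1.96 in the deposited values (adjusted p = 0.0199). Keratin 1 (Krt1), the major keratin of suprabasal cells, had 6.59, 6.35, 6.65 and 6.56 in sham, against 6.05 in the irradiated array of prefix SG and 6.73, 7.75 and 7.58 in those of prefix US. The groups therefore overlapped, with the irradiated array of prefix SG below every sham array. The deposited Krt1 values ran from 5.69 to 7.18 in sham and from 7.51 to 8.79 after 1 Gy, a rise of 1.75 (adjusted p = 0.0208).

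The late cornified envelope genes Lce1b, Lce1f, Lce1h and Lce1i, which lie in one cluster on chromosome 3, rose by 1.49, 1.24, 1.54 and 1.20 in the deposited values (adjusted p from 0.00713 to 0.0398). Their differences in the first model were 0.71, 0.80, 0.88 and 0.79, with unadjusted p between 0.079 and 0.141. Flg2, a filaggrin relative of the same cluster, rose by 1.64 in the deposited values and differed by 0.71 in the first model. The lipoxygenases Alox12b and Aloxe3, which oxidize linoleate of barrier ceramides, rose by 1.26 and 1.22 in the deposited values, and had 0.55 and 0.25 in the first model. The other probe of Alox12b had 0.24 in the deposited values and -0.21 in the first model. At the other end of the list, Rptn (repetin) had -0.67 in the first model and -0.28 in the deposited values.

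**Figure D2:**
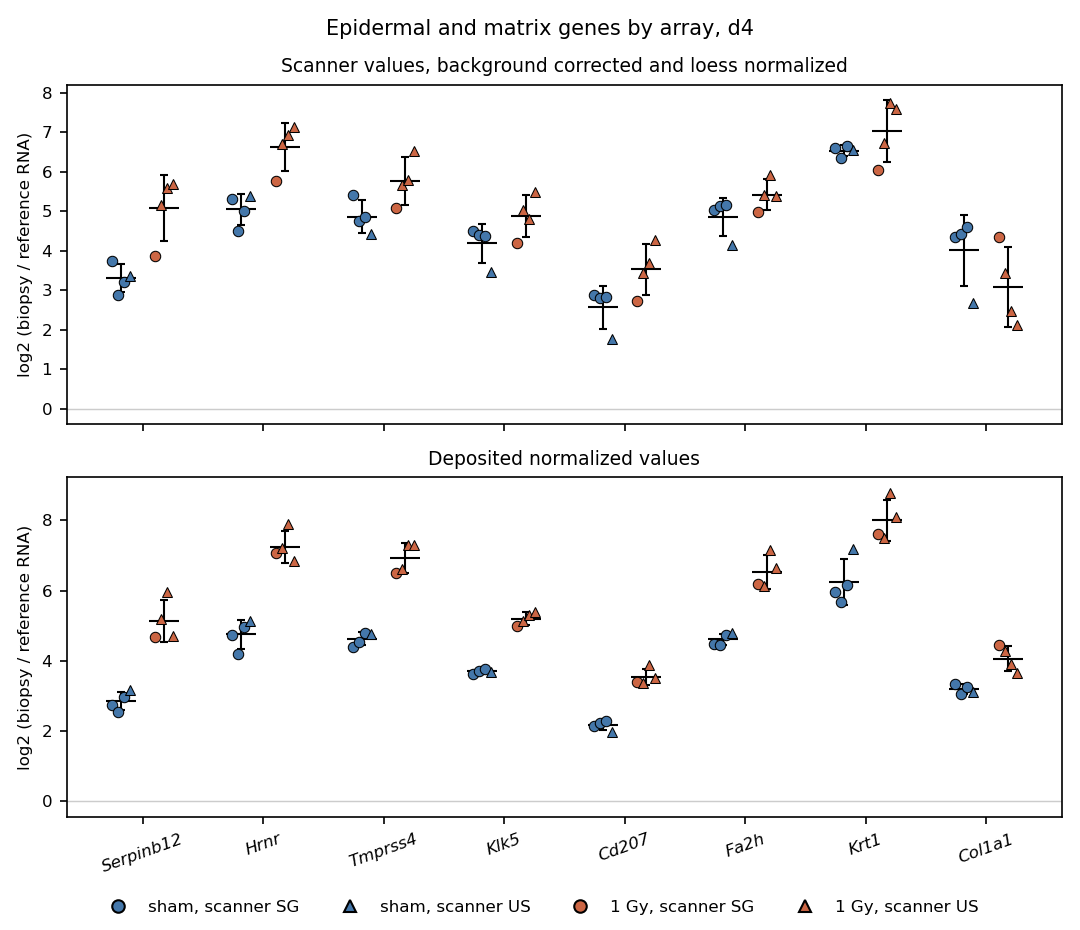
Log2 ratios of biopsy to reference RNA are shown per array for 8 genes, in scanner values above and in deposited values below, with sham in blue, 1 Gy in orange, prefix SG as circles, prefix US as triangles, and mean ± SD as bars. In the upper panel the orange circle lies at or near the blue circles for Krt1, Klk5 and Cd207, and in the lower panel it lies with the orange triangles.

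Some proteases and inhibitors of the epidermal surface had high values in the deposited table. Of 10 tested members, 8 were positive there and 7 in the first model, where the lowest had -0.56. In the deposited values 1 member was lower at an unadjusted p under 0.05 in limma (1198 of 15731 over all genes). Of 10 tested kallikreins and their inhibitors, 3 were SDTGs upward there (181 of 15731 over all genes), with a list median of 0.77, against 0.26 in the first model, 0.02 with the scanner block, -0.16 within prefix SG and -0.61 with flagged backgrounds left as they were. Klk5, a trypsin-like kallikrein that starts the cascade of desquamation, had deposited values of 3.63, 3.71, 3.77 and 3.69 in sham and 4.99, 5.13, 5.30 and 5.39 after 1 Gy, a rise of 1.5 ± 0.28 (adjusted p = 0.00121). In the scanner values Klk5 had 4.50, 4.40, 4.38 and 3.46 in sham and 4.19, 5.02, 4.81 and 5.48 after 1 Gy, so that the groups overlapped (difference 0.69 ± 0.56, -0.23 within prefix SG and 1.64 within prefix US). Klk8 rose by 1.35 in the deposited values (adjusted p = 0.00508) and differed by 0.47 in the first model and by -0.02 with the scanner block. Spink5, an inhibitor of skin kallikreins, rose by 1.52 (adjusted p = 0.0134) and differed by 1.14 in the first model, 1 irradiated array being without a usable spot. Klk7, a chymotrypsin-like kallikrein, had 0.89 in the deposited values (adjusted p = 0.126), 0.81 in the first model and -0.42 within prefix SG, and another of its 3 probes passed in the deposited values (1.39, adjusted p = 0.0231).

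Tmprss4, a membrane-bound serine protease, had the lowest adjusted p of the comparison. In the deposited values it rose by 2.31 ± 0.36 (adjusted p = 0.000457), from 4.41, 4.55, 4.80 and 4.76 to 6.51, 6.62, 7.31 and 7.30. The scanner values were 5.42, 4.76, 4.85 and 4.42 in sham and 5.08, 5.66, 5.80 and 6.53 after 1 Gy, which overlap, and the difference was 0.91 (unadjusted p = 0.0857). Aadac, an esterase of lipids and drugs, rose by 1.96 in the deposited values and had 0.96 in the first model.

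Genes that keratinocytes switch on after wounding or stress were the list with the highest median in the first model among the epidermal lists. Of 17 tested, 16 were positive in the first model, with a median of 0.65 (0.43 with the scanner block, 0.71 in the deposited values), and the median was 0.01 within prefix SG, 0.92 within prefix US and 0.04 with flagged backgrounds left as they were. S100a9, a calcium-binding protein of neutrophils and stressed keratinocytes, had 2.01, 2.74, 2.09 and 2.28 in sham and 2.45, 3.85, 7.01 and 4.87 after 1 Gy. Its difference was 2.27 (unadjusted p = 0.032), with M009 the highest and the groups overlapping. Stfa3 (stefin A3, a cysteine protease inhibitor) had 2.83, 3.13, 2.41 and 2.80 in sham and 4.02, 4.90 and 5.40 after 1 Gy, where the spot of M009 was left out as an outlier. It differed by 1.98 in the first model (unadjusted p = 0.0423) and rose by 2.19 in the deposited values (adjusted p = 0.0249). The keratins Krt6b and Krt16 of activated epidermis had 1.67 and 1.40 in the first model (unadjusted p = 0.0719 and 0.0684), while Krt6a had 0.75 and rose by 1.43 in the deposited values (adjusted p = 0.034). Defb3, an antimicrobial defensin, rose by 1.06 there and differed by 0.65 in the first model.

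Neutrophil markers were set beside these genes. The mean over 14 neutrophil genes, relative to sham, was 1.17 in M009, 0.71 in M008, 0.28 in M007 and 0.02 in M010, against -0.11 to 0.07 in the sham arrays. The mean over the wound genes was 1.75, 1.05, 0.41 and 0.16 in the same order, against -0.39 to 0.38 in sham. Of the neutrophil genes 4 were well above background on all 8 arrays, and the granule genes Camp, Ltf and Mmp8 on none. The lists share S100a8, S100a9 and Lcn2, and the part of neutrophils in the values of the wound genes was not tested.

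Genes of the sebaceous gland had positive medians on both scanners, although members differed in sign between them. All 12 tested members were positive in the first model, with a median of 0.45, and 0.46 with the scanner block, 0.40 within prefix SG, 0.77 within prefix US and 0.76 in the deposited values, where 5 of the 12 were SDTGs upward (181 of 15731 over all genes). Over the arrays, the list mean relative to sham was 0.37 in M010, 0.93 in M007, 0.82 in M009 and 0.18 in M008, against -0.12 to 0.13 in sham. The median stayed positive under 26 of 28 alternatives, and was -0.08 with median centering in place of loess and -0.13 with flagged backgrounds left as they were. Fa2h, which makes the hydroxylated fatty acids of sebum, rose by 1.92 in the deposited values (adjusted p = 0.000651) but had 0.56 in the first model, with -0.13 within prefix SG and 1.43 within prefix US. Elovl3 and Scd3, which lengthen and desaturate fatty acids, rose by 1.44 and 1.31 in the deposited values and differed by 0.75 and 1.06 in the first model, where Scd3 had -0.22 within prefix SG and 1.52 within prefix US. Awat2, a wax synthase, had 1.06 in the first model and rose by 1.08 in the deposited values (adjusted p = 0.0266). Cidea, a lipid droplet protein, rose by 1.29 there, and had 0.33 in the first model with 2 irradiated arrays lacking a usable spot. Fat-cell markers were also positive beside these genes. Of 15 tested adipocyte genes 14 were positive in the first model, with a median of 0.50 (0.03 with the scanner block, 0.53 within prefix SG, -0.56 within prefix US and 0.56 in the deposited values), and none was an SDTG. All 7 tested brown adipocyte genes were positive, with medians of 0.33, 0.07, -0.02, -0.55 and 0.92 in the same order, and their 2 SDTGs in the deposited values were Elovl3 and Cidea, which the sebaceous list also holds. Over the irradiated arrays, the adipocyte mean relative to sham was 0.11 in M010, 1.23 in M007, 0.93 in M009 and 0.05 in M008, highest in the same 2 arrays as the sebaceous mean, while the sham array of M002 had 1.30 for adipocyte and -0.09 for sebaceous genes. The arrays of M007 and M009 lay on one slide. The part of fat cells or of the slide in the sebaceous values was not tested.

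When the control group held the sham arrays of all time points in place of those of d4, 4 probes were SDTGs upward and none downward, and their genes are named after their values were seen. These controls were 16 arrays of 5 mice, and with the mouse as a block 2 of the 4 probes remained, those of Acaca (adjusted p = 0.036) and 2010003K11Rik (0.0188), while Fasn (0.0508) and Pcx (0.12) did not pass. Without that block, Fasn (fatty acid synthase) rose by 1.54 ± 0.29 (adjusted p = 0.0202), Acaca (acetyl-CoA carboxylase) by 1.21 ± 0.23 (0.0202), Pcx (pyruvate carboxylase) by 1.25 ± 0.25 (0.0374) and 2010003K11Rik by 1.18 ± 0.21 (0.0117). Of the 4 probes of Acaca and the 2 of Fasn, 1 each passed. Fat-cell markers were high beside them: the adipocyte list had a median of 0.71 against these controls, and was highest in M002 (1.30) and M007 (1.23), which also had the highest Acaca and Fasn values of their groups. Its part in these values was not tested. Against the 4 sham arrays of d4, the differences were 0.74, 1.00, 0.85 and 1.08, with unadjusted p of 0.0252, 0.00146, 0.0128 and 0.000133 and adjusted p of 0.763.

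Acaca (chr11:84129635-84401651) had 0.08, 0.14, 0.19 and 0.96 in sham and 0.91, 2.02, 1.37 and 1.08 after 1 Gy, so that the sham array of prefix US (0.96) lay above the irradiated array of prefix SG (0.91). Of its 4 probes, all positive, 3 had unadjusted p from 0.00105 to 0.0126 in the first model. Fasn (chr11:120805958-120825166) had 2.14, 1.90, 1.64 and 2.67 in sham and 2.78, 3.65, 2.78 and 2.10 after 1 Gy, which overlap, and its other probe, which stands for Fasn in the sebaceous list, differed by 0.19. Pcx (chr19:4510472-4621752) had 1.41, 1.59 and 1.13 in the sham arrays with a usable spot and 2.13, 3.16, 2.01 and 1.60 after 1 Gy. The spot lacking was that of M002, so that no sham array of prefix US stood against the irradiated arrays of that prefix. Within prefix SG the Pcx difference was 0.75. Its near neighbour 2010003K11Rik (chr19:4496788-4498583) had 0.49, 0.69, 0.24 and 1.00 in sham and 1.67, 2.26, 1.93 and 0.90 after 1 Gy, where M008 lay within the sham range. Within prefix SG, where 1 irradiated array stood against 3 sham arrays, 2010003K11Rik differed by 1.19, and in the deposited values it had 0.80 with an adjusted p of 0.00291. The window before its start (chr19:4498584-4498833, minus strand) is shown because this gene had the lowest unadjusted p of the named genes, with TGANTCA in capitals and without TATAAA.
2010003K11Rik: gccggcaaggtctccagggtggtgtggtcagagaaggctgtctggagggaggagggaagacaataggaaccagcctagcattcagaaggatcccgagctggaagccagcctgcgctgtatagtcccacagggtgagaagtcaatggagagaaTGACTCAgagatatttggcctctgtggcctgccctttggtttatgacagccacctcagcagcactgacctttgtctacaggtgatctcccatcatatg
Of 8 matched sebaceous genes, none held either motif in this window.

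**Figure D3:**
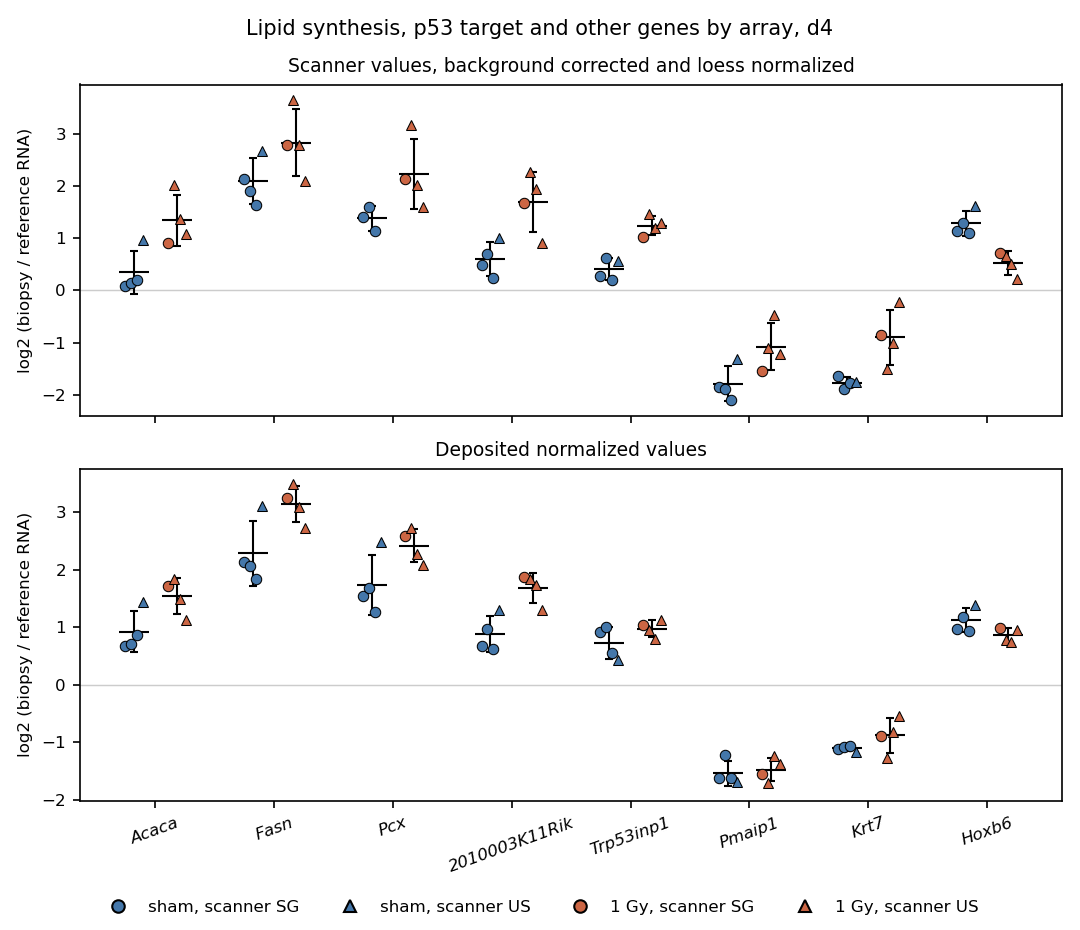
Log2 ratios of biopsy to reference RNA are shown per array for 4 genes of lipid synthesis or its neighbourhood, for the p53 targets Trp53inp1 and Pmaip1, and for Krt7 and Hoxb6, with scanner values above and deposited values below and the same symbols as for the epidermal genes. The groups of Trp53inp1, Krt7 and Hoxb6 do not overlap in the upper panel, and they overlap in the lower one.

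Targets of p53, which radiation is known to induce, differed little as a group at d4. Of 28 tested genes, none was an SDTG in any of the 3 models, and the median was 0.13 in the first model, 0.08 with the scanner block and 0.07 in the deposited values. In the first model 3 were higher and 2 lower at an unadjusted p under 0.05, where 2.45% of all genes were higher and 3.29% lower. Trp53inp1 (chr4:11156441-11174379), a p53-induced regulator of cell death and autophagy, had 0.27, 0.62, 0.19 and 0.56 in sham and 1.02, 1.46, 1.20 and 1.28 after 1 Gy. These values did not overlap, also within each scanner prefix (0.66 for SG and 0.75 for US), and the difference was 0.83 ± 0.30 (unadjusted p = 0.00812). The deposited values gave 0.25, and a second probe had 0.21 in the first model. Pmaip1 (Noxa) and Bax, which promote apoptosis, had 0.71 and 0.51 (unadjusted p = 0.0148 and 0.0149), and 0.07 and -0.02 in the deposited values. The repair genes Xpc and Ddb2 had -0.31 and -0.45 (unadjusted p = 0.018 and 0.039), whereas Cdkn1a (p21) and Mdm2, a pair of classical targets, had 0.23 and -0.23. With median centering, which moved the median of all probes to -0.30, the p53 median was -0.46.

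Genes of the cell cycle (34 tested) had a median of 0.15 in the first model and -0.21 in the deposited values, and genes of DNA repair (24 tested) had 0.14 and -0.10, with no SDTG in either list. Tyms, which makes thymidylate for DNA synthesis, had the lowest unadjusted p of the former in limma (0.0475, for a difference of 0.43). E2f1, a transcription factor of S phase entry, had 0.30 in the first model and -0.32 with median centering.

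Several genes of the first model did not overlap between groups, were bright on all 8 arrays and had an unadjusted p under 0.01, without passing the adjusted threshold. These criteria were met by 14 genes that were higher and 5 that were lower, and the 12 with the largest difference among the former and all of the latter are described. These were 0.122% and 0.0437% of the 11434 genes that were bright on all 8 arrays, and over all 15731 genes tested 0.979% did not overlap upward and 1.59% downward. The criteria used these same values, so that the counts are a description. Krt7 (chr15:101412403-101427806), a keratin of simple and glandular epithelia, had -1.64, -1.89, -1.78 and -1.76 in sham and -0.86, -1.50, -1.01 and -0.22 after 1 Gy, a difference of 0.87 ± 0.25 (unadjusted p = 0.000911) that was 0.91 within prefix SG and 0.85 within prefix US. Its second probe had 0.52, and the deposited values gave 0.23. Bcl2l15, a relative of Bcl2, had 1.24 in the first model and rose by 1.53 in the deposited values (adjusted p = 0.00136), and Macc1 had 1.09 and 0.95 (adjusted p = 0.00982, below the fold threshold). Atp6v0a1, a subunit of the proton pump of vesicles, had the lowest unadjusted p of these genes in limma (0.000153, for a difference of 0.61), although its other probe had -0.17. The remaining higher genes were Rps3a1, Zfp655, Mcts2, Mphosph10, Mydgf and Ufd1, with differences of 0.55 to 0.83 in the first model and -0.01 to 0.34 in the deposited values. For Zfp655, M009 (2.04) lay far above the other irradiated arrays (-0.29 to 0.00). Other probes of Rps3a1, Zfp655 and Ufd1 did not show the difference, with values of -0.17 to 0.22.

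On the lower side, Hoxb6 (chr11:96292814-96301569), a homeobox gene of body position, had 1.13, 1.28, 1.09 and 1.62 in sham and 0.72, 0.65, 0.51 and 0.21 after 1 Gy. Its difference was -0.75 ± 0.25 (unadjusted p = 0.0039), -0.44 within prefix SG and -1.16 within prefix US, against -0.26 in the deposited values. Map2k7, Flcn, Rsc1a1 and Tcp11l2 had -0.74, -0.52, -0.51 and -0.51, and -0.16, -0.12, -0.24 and -0.32 in the deposited values. For Map2k7 the array of prefix SG (0.83) lay at the level of sham (0.83 to 0.90), and the other probe had 0.17.

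Genes that the study assigned to hematological pathways were examined next; those lists were chosen by the study on these samples, so that their direction is no independent evidence. Of 16 tested genes of GP6 signaling, through which platelets bind collagen, the median was -0.24 in the first model, -0.04 with the scanner block and 0.29 in the deposited values, and 1 was an SDTG upward in the latter. The 8 genes of intrinsic prothrombin activation had -0.22, -0.08 and 0.76, with 1 SDTG upward in the deposited values, and the 10 tested hematological genes had 0.09, 0.02 and 0.62 without any, where 181 of 15731 genes were upward over all. The SDTGs were Col7a1 (1.10, adjusted p = 0.00938), the collagen of anchoring fibrils, and Klk8.

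Some collagen genes, Col1a1 and Col1a2 among them, differed in sign between the sources, while others, such as Col15a1 (0.34 in the first model and 0.73 in the deposited values) and Col18a1 (-0.27 and -0.12), did not. The probe that stands for Col1a1 in the lists had scanner values of 4.35, 4.43 and 4.59 in the sham arrays of prefix SG and 2.67 in that of prefix US, against 4.36 in the irradiated array of prefix SG and 3.44, 2.47 and 2.11 in those of prefix US. Both groups thus split by prefix, and the difference of -0.92 ± 0.57 was -0.24 with the scanner block. The deposited values were 3.35, 3.07, 3.27 and 3.12 in sham and 4.44, 4.27, 3.90 and 3.65 after 1 Gy, which did not overlap (0.86, adjusted p = 0.122). The other probes of Col1a1 had -0.09 and 1.86 in the first model, and rose by 1.18 and 1.29 in the deposited values (adjusted p = 0.0266 and 0.0497). Col1a2 had -1 and 0.74, and Pdgfrl -0.66 and 0.68, in the first model and the deposited values. Calm4, a calcium-binding protein of differentiating keratinocytes, had 0.57 and 1.29 (adjusted p = 0.056), and -0.30 within prefix SG. The beta globin gene Hbb-bt had 0.16 and 0.63 and the heme-binding gene Hebp2 had 0.29 and 0.89, none past the threshold. The other 3 probes of Hbb-bt had -0.24, 0.42 and 0.40 in the first model and 0.42, 1.21 and 0.89 in the deposited values, with adjusted p of 0.734, 0.183 and 0.273. Hebp2 and the Hbb-bt probe given first each lacked a usable spot on 1 irradiated array in the scanner values.

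Of the immune cells of the epidermis, genes of Langerhans cells and of T cells had some high members. Cd207 (langerin), the defining marker of Langerhans cells, rose by 1.38 ± 0.23 in the deposited values (adjusted p = 0.000651), from 2.16, 2.23, 2.30 and 1.97 to 3.39, 3.38, 3.87 and 3.51. In the scanner values it had 2.88, 2.80, 2.83 and 1.76 in sham and 2.72, 3.43, 3.69 and 4.28 after 1 Gy, with -0.12 within prefix SG and 2.05 within prefix US. The 16 tested genes of dendritic and Langerhans cells had a median of 0.00 in the first model and 0.30 in the deposited values. Cd3d and Cd7 of T cells rose by 1.12 and 1.00 in the deposited values (adjusted p = 0.000741 and 0.00816). In the first model they had 0.57 and 0.19 (unadjusted p = 0.177 and 0.652 in limma). They were the 2 SDTGs among 17 tested T cell genes, where 181 of 15731 genes were upward over all. Cd3e had -0.56 in the first model and -0.19 in the deposited values, and the 17 tested T cell genes had medians of 0.05 and 0.20. The chemokine Ccl19, which calls dendritic cells and T cells to lymph nodes, rose by 1.89 in the deposited values and had 0.42 and 1.64 for its probes in the first model. Flt3 and Xcr1, of dendritic cells, had unadjusted p of 0.00481 and 0.0174, but Flt3 was raised in 1 irradiated array alone (3.40, against 0.07 to 0.21 in the other arrays of either group), and Xcr1 was lower by 1.04 with overlapping groups.

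The 7 probes that were lower in the deposited values include Krtap7-1 (a keratin-associated protein of hair), Padi1 (an enzyme that citrullinates keratin and filaggrin), Mest and Tm4sf1, and the other 3 have no single symbol. Tm4sf1 fell by 1.05 (adjusted p = 0.00699), from -0.25, -0.20, -0.26 and -0.88 to -1.39, -1.57, -1.47 and -1.35. In the first model it had -0.20, and the median of the 7 was -0.15. Krtap7-1 was well above background on 2 sham arrays and 1 irradiated array, so that its value of -1.28 in the deposited table rests on dim spots.

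Markers of other cells of the biopsy were set beside these results, since whole skin also holds fat, muscle and hair. In the scanner values the sham array of M002, the lone sham array of prefix US, stood apart from the other 3 sham arrays. Relative to the sham mean, its adipocyte genes were at 1.30 (others -0.58 to -0.33), its skeletal muscle genes at 0.98 (others -0.44 to -0.16) and its basal keratinocyte genes at -0.67 (others 0.17 to 0.32). Adipocyte genes were at 1.23 and 0.93 in the irradiated arrays of M007 and M009 and at 0.11 and 0.05 in M010 and M008. Skeletal muscle genes were at 0.80, 0.66 and 0.30 in M007, M009 and M008 and at -0.62 in M010. The median difference of 22 skeletal muscle genes was 0.33 in the first model, -0.05 with the scanner block and 0.94 in the deposited values. It was -0.28 within prefix SG, -0.29 within prefix US and -0.38 with flagged backgrounds left as they were. A probe of Myh2, a fast muscle myosin, rose by 2.30 in the deposited values (adjusted p = 0.0323), where M002 (6.25) lay above M010 (6.05). Its other probes had 1.61 and 1.67 there (adjusted p = 0.0651 and 0.0782). None of the 22 genes was an SDTG by the probe that stands for it. All 14 basal keratinocyte genes were well above background on all 8 arrays, which fits the labelled tissue, and their median was -0.04 in the first model and 0.59 in the deposited values. In the irradiated array of M009, inner root sheath genes were at 3.49 relative to sham (other arrays -0.11 to 0.18) and hair shaft genes at 1.13, while genes of follicle stem cells and the outer root sheath were at -0.50. The deposited values of that array were 1.16, -0.25 and 0.28 for these 3 lists. In the inner root sheath and hair shaft lists, 3 of 7 and 6 of 17 genes were well above background on all 8 arrays. The list medians turned in sign between the sources, from 1.21 in the first model to -0.31 in the deposited values for the inner root sheath, from 0.16 (12 of 17 genes positive) to -0.50 (0 of 17) for the hair shaft and from -0.23 to 0.32 for the outer root sheath list. With 1 array left out, the inner root sheath median of the first model fell to as low as 0.09. The part of these other cells in the epidermal values was not tested.

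**Figure D4:**
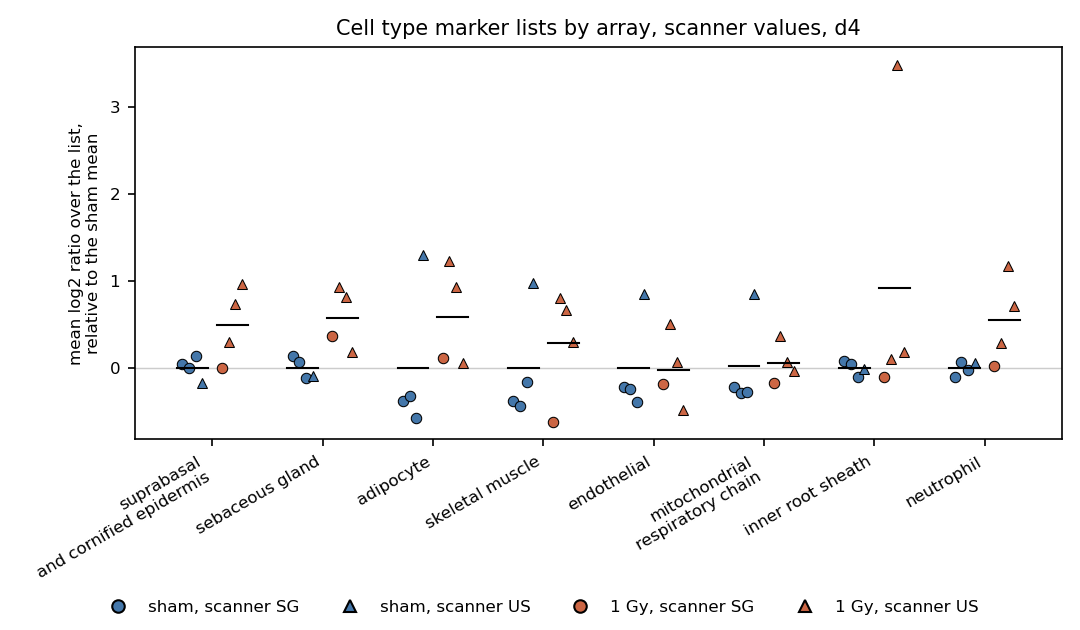
The mean log2 ratio over 8 marker lists is shown for each array relative to the sham mean, in scanner values, with sham in blue, 1 Gy in orange, prefix SG as circles, prefix US as triangles, and the group mean as a line. The sham triangle (M002) lies at 1.30 for adipocyte and 0.98 for skeletal muscle genes, above the other sham arrays, and 1 irradiated array lies at 3.49 for the inner root sheath.

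Without M002, neither direction gave an SDTG in the scanner values, whereas the deposited values gave 238 probes higher and 20 lower. Without M009, they gave 110 higher and 3 lower, without M004 131 and 4, and without M001 138 and 2.

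**Figure D5:**
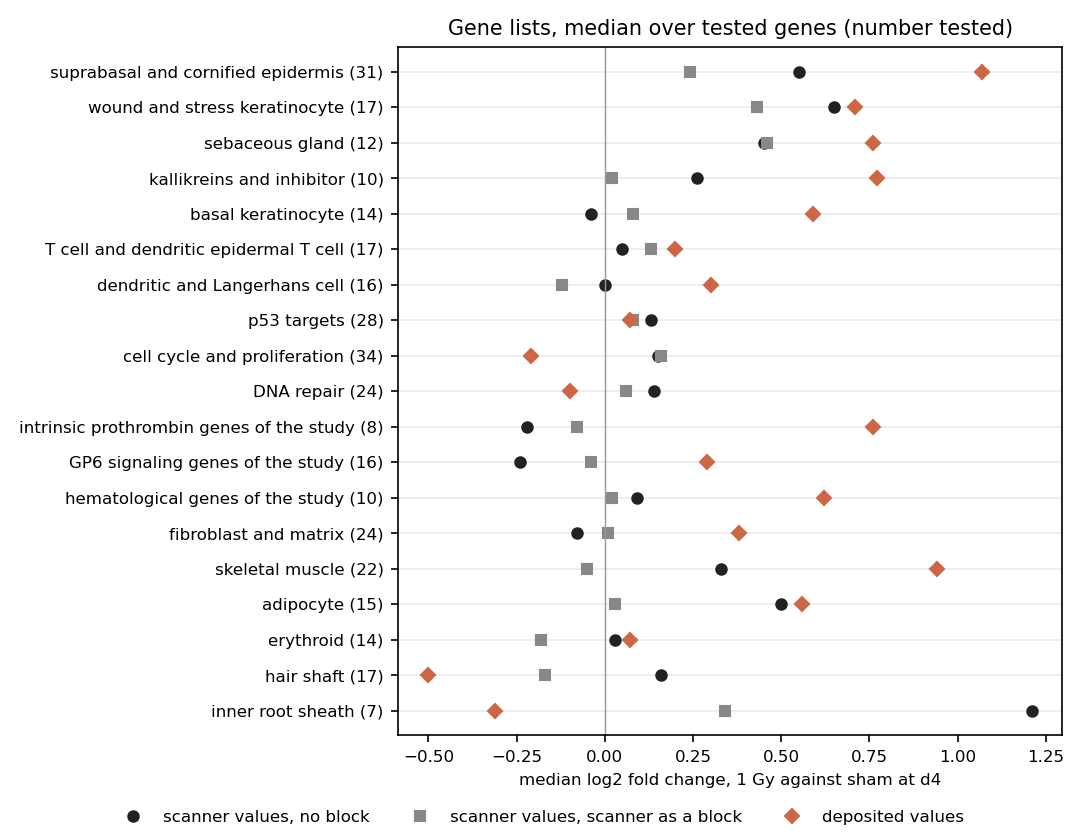
The median log2 difference between 1 Gy and sham at d4 is shown for 19 gene lists, with the number of tested genes in parentheses, for the first model (circles), the model with the scanner block (squares) and the deposited values (diamonds). The sebaceous gland list has values of 0.45, 0.46 and 0.76, while the suprabasal list has 0.55, 0.24 and 1.07 and the GP6 list changes sign.

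Whether the differences at d4 were those of h2 was tested as a contrast of both, with the same 4 sham mice and 3 of 4 irradiated mice at both times. No probe passed in the scanner values (0% called, lowest adjusted p 0.307) or in the deposited values (lowest adjusted p 0.998). Before adjustment and past the fold, 68 probes in the scanner values and 26 in the deposited values were higher at d4, and 128 and 5 were lower. In the deposited values, Hrnr rose by 2.21 at h2 and by 2.49 at d4, Serpinb3b by 1.65 and 1.92, and Cd207 by 1.18 and 1.38. Serpinb12 had 0.94 at h2 (adjusted p = 0.173), Fasn 0.14, Acaca 0.01 and Scd3 0.77 (adjusted p = 0.147), none of which passed the test of a difference. Trp53inp1 had 1.07 at h2 in the first model.

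At d4, the other doses share the 4 sham arrays with 1 Gy, so their values are given side by side alone. All arrays of 20 Gy at d4 were of prefix SG, whereas most of 1, 3 and 6 Gy were of prefix US. Dose and prefix thus go together in part. The suprabasal list had medians of 0.55, 0.41, 0.57 and -0.06 after 1, 3, 6 and 20 Gy in the first model and 1.07, 0.64, 0.48 and -0.40 in the deposited values. The sebaceous list had 0.45, 0.12, 0.34 and -0.32, and 0.76, 0.63, 0.87 and -1.72 in the deposited values. Serpinb12 had 1.77, 1.62, 1.63 and -2.19 in the first model, and 2.27, 1.84, 1.55 and -0.67 in the deposited values. Krt7 had 0.87, 1.33, 1.37 and 2.71 in the first model, and 0.23, 0.65, 0.31 and 0.97 in the deposited values.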

How the data were processed

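Skin biopsy RNA (Cy5) was hybridized with a universal mouse reference RNA (Cy3) on Agilent arrays of 41174 probes, without dye swaps. The deposited scanner files hold an intensity per spot and channel and the scanner software's log10 ratio. Feature Extraction 11.0.1.1 is named in the submitters' processing notes, but files of prefix US name 10.10.1.1. The authors normalized the arrays and deposited the resulting log2 values. Their scale and direction were found by comparison with the scanner values, as log2 ratios of Cy5 over Cy3 (correlation 0.912 to 0.977, slope 0.811 to 1.06 and medians -0.01 to 0.01 on the 8 arrays compared; over the 82 arrays the lowest correlation was 0.649), and the steps of that normalization are not given in the sources used here.

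Intensities were corrected by normexp (offset 50) and normalized within arrays by loess in limma 3.58.1 (R 4.3.3), without control spots and outlier spots. Local backgrounds flagged as outliers inflated the noise estimate on some arrays (in Cy3 of M009, 5180 against 0.881) and not on others (in Cy3 of M004, 1.43 and 1.43). On all arrays they were therefore replaced by the array's median background. This step was chosen after seeing the data, as were the scanner block and leave-one-out fits of the deposited values and the mouse block with pooled sham arrays. Probes entered the test (30294) if 1 group or more had them well above the Cy5 background on 50% of its arrays. One model gave each of 23 groups a mean over 82 arrays of 24 mice (59 residual degrees of freedom). P-values were adjusted by Benjamini-Hochberg. Replicates are mice. The number of arrays limits the precision. No arrays were identical.

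A single gene symbol was known for 27553 probes, several for 19 and none for 13602. Genes were named by rule: up to 12 per direction by size, with an unadjusted p under 0.01, bright spots on all 8 arrays and groups that do not overlap; the 10 largest rises and the falls in the deposited values; genes the study lists; members of each list with the lowest p or called. Members and lists were chosen with earlier results of these data known. The fits were tested on simulated data. Alternatives changed the source of values, background, normalization, filter, blocks, weights, controls and arrays.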

Additional observations from a re-analysis of the deposited data

Results flagged for a closer look

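In 24 of 220 groups of 4 arrays (10.9%), 1 array lay far from the others by Dixon's criterion. Many of the genes were chosen from these same values, and lists share genes and arrays, so no chance rate applies to this share. Groups with fewer than 4 usable values were counted but could not be flagged. Of the 24, 15 were the sham array of M002. Its log2 ratios were 7.56 for Myh2, 4.14 for Fa2h, 3.59 for Ccl19, 2.67 for Col1a1, 3.46 for Klk5, 0.96 for Acaca, 1.76 for Cd207 and 0.04 for Atp6v0a1. Relative to the sham mean, its list means were 1.30 for adipocyte, 0.71 for brown adipocyte, 0.85 for endothelial, 0.51 for erythroid, 0.85 for mitochondrial respiratory chain, 0.10 for p53 target and -0.67 for basal keratinocyte genes. Awat2 was apart in the sham array of M005 (1.28).

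After 1 Gy, M009 was apart for Zfp655 (2.04), hair shaft genes (1.13) and inner root sheath genes (3.49). M010, the irradiated array of prefix SG, was apart for Atp6v0a1 (0.12), IL-6 pathway genes (-0.19) and p53 targets (0.05). M007 was apart for Flt3 (3.40) and M008 for Cd7 (3.87).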

How the results depend on the processing

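The scanner values gave no SDTG under most alternatives, and the exceptions were the arrays of prefix SG alone (16 higher, 9 lower, with 1 irradiated array taken to vary like other groups), sham arrays of all times as the control (4 and 0, or 2 and 0 with the mouse as a replicate block) and array weights (727 and 575, of which 31 were also called in the deposited values; weights were 0.222 for M002, 0.343 for M010 and 1.16 to 3.18 for sham arrays of prefix SG). The deposited values gave 216 and 7, and 158 and 5 with the scanner block. Against the sham arrays of d4, with the mouse as a replicate block (correlation 0.104), there were 0 higher and 0 lower. The slide as a random block (correlation 0.413) gave 0 and 0 as well. Without an adjusted p, 74 probes were higher and 29 lower, 4 and 3 with the scanner block, 68 and 128 for d4 against h2, and 322 and 22 in the deposited values, where 599 and 242 passed without the fold. Leaving out 1 array gave 0 and 0 in the scanner values, and 110 to 238 higher (110 without M009) and 2 to 20 lower (2 without M001, 20 without M002, 12 without M008) in the deposited ones. Directions turned for Col1a1 (0.86, and 0.93 with the block), Col1a2 (0.74 and 0.82) and Pdgfrl (0.68 and 0.76) in the deposited values, for Calm4 (-0.30) and Klk7 (-0.42) within prefix SG, and for E2f1 (-0.32) with median centering, which moved the median of all probes to -0.30. The causes were not tested. A value within its SE of 0 was given no direction. Of 1912 comparisons of gene values, 87 newly passed the threshold and 73 moved. Another 1743 were counted as unchanged, which includes values of opposite sign that differed by less than the spread between arrays. Of 1092 list medians 189 moved by more than the spread between arrays.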

Other observations

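Within prefix SG, where 1 irradiated mouse (M010) stood against 3 sham mice, 16 probes were higher and 9 lower, and none of the 25 was called in the deposited values. With a single irradiated array these values describe that mouse. The following genes are named after their values were seen. Lep (leptin, a hormone of fat cells) had a difference of 1.18 there, 0.50 over all arrays and -0.20 in the deposited values. Mup6, a major urinary protein, had 1.54, 0.78 and 0.58, and Ces1f, a carboxylesterase, had 1.54, 0.54 and 0.97. Adipocyte genes were at 0.11 in M010 and at -0.58 to -0.33 in the sham arrays of prefix SG, with a median difference of 0.53, and their part in these values was not tested.

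Genes of the interferon response (25 tested) had a median difference of 0.17 in the first model and 0.11 in the deposited values after 1 Gy, and 0.93 and 1.07 after 6 Gy against the same sham arrays. Immediate early genes (19 tested) had -0.35 in the first model and 0.32 in the deposited values, and circadian clock genes (17 tested) had 0.00 and 0.53, without any SDTG in the latter list.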
